A study of Homo sapiens with 15 samples.

Results

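The 40 genes described here signal DNA damage or act in homologous recombination and the Fanconi anaemia pathway. They were taken from a fixed list of symbols, matched to the Ensembl identifiers of the count table through GENCODE 44, and all 40 were found among the 57272 genes of the table. They were sorted by role into damage signalling (7 genes), end resection (5), BRCA1, BRCA2 and their partners (5), partners of strand exchange (5), the Fanconi core complex with its E2 enzyme (9), FANCD2 and FANCI (2), helicases and crossover control (5) and nucleases (2). The filter on low counts kept 39 of them for testing. RTEL1, a helicase that unwinds telomeric loops, was left untested because its normalized counts lay at 15.7 or below in every library. Since 52.9% of its exonic bases are shared on the same strand with other annotation, its level of expression is uncertain.

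Homologous recombination mends broken DNA by copying the intact sister chromatid, and it is used mainly by cells that are replicating or have replicated their genome. Kinases first signal the break, nucleases then trim the ends to single strands, BRCA1 and BRCA2 with their partners load a recombinase, and helicases and nucleases take the joint molecules apart at the end. The Fanconi pathway frees replication forks from DNA crosslinks: a core complex with the E2 enzyme UBE2T attaches ubiquitin to FANCD2 and FANCI, which then call in nucleases and the recombination proteins. Many of these genes are known to be transcribed most in dividing cells.

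The cells were MRC-5, a widely used fibroblast line from human fetal lung with a limited replicative life span, grown at 5% O2, and total RNA was sequenced from 15 libraries, 3 in each of 5 groups. Young cells at population doubling 30 carried an empty lentiviral vector (pWPIR-GFP) with a control siRNA, the same vector with TRF2 and the control siRNA, or an siRNA against LMNB1, and the column names of this last group give the empty vector too. Senescent cells had been passaged to a pre-senescent stage, infected with the empty or the TRF2 virus, and given the control siRNA once growth had reached a plateau. Cells with TRF2 reached it at a later population doubling than those with the empty vector. TRF2 and the number of doublings thus cannot be told apart between the senescent groups. In the study TRF2 was expressed for days in young cells and over many population doublings in the senescent ones. Senescence and the length of TRF2 expression therefore cannot be told apart where effects of TRF2 in young and senescent cells are compared. TRF2 is a shelterin protein that protects telomeres, and LMNB1 encodes lamin B1 of the nuclear lamina. All groups come from a single cell line that carries a GFP vector, and the replicates are called biological in the study without a statement that they were separate cultures, so p-values measure the spread between these libraries, which may be partly technical.

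Total counts per library ranged from 26725885 to 43116046. The manipulations were visible in the counts: mean LMNB1 was 1922 in young cells with the empty vector and 86.0 with siLMNB1, and mean TERF2, which encodes TRF2, was 766 and 6269 without and with the TRF2 vector in young cells. Defining fibroblast markers were abundant in every group, whereas PTPRC, a marker of leukocytes, had mean normalized counts of 1.65 or less in each group and EPCAM, a marker of epithelium, of 27.3 or less. PTPRC and EPCAM come from longer lists, and the other markers of leukocytes, epithelium and endothelium are not described here. All 6 senescent libraries, and 0 of the 9 young ones, are marked as reanalysed from an earlier deposit, so senescence and deposit cannot be told apart. Whether both deposits were counted with the same annotation and settings is not given in the sources used here, which bears most on genes that overlap others. Relative to the young mean, the log2 level of a gene rose by 0.46 to 0.82 for every 10 percentage points of GC content in its exons in the senescent libraries, compared with −0.0063 to 0.13 in the young ones. The third senescent library with the empty vector had the steepest slope and stands apart from the others. For this reason the fits were repeated with a correction for GC content and gene length (offsets), and without that library.

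Homologous recombination and Fanconi genes were lower in senescent than in young cells. With the empty vector, 34 of the 39 members tested were lower and 1, SLX4, was higher at an adjusted p below 0.05 (quasi-likelihood test of edgeR, adjusted by Benjamini-Hochberg over the 15799 genes tested), where 31.9% of all genes were lower and 32.7% higher. The median log2 fold change of the members was −1.23, against 0.02 over all genes tested. At least a 2-fold difference in addition was found for 22 members, all lower, against 11.8% of all genes. Without the third senescent library, 35 members were lower and 1 higher, where 5331 of 16157 genes were lower and 4963 higher. The genes of the cell cycle moved in the same comparison: 9 of 10 proliferation markers were lower, with a median of −2.57, and their part in the fall of the members was not tested. In bulk RNA, fewer cycling cells and less RNA per cell cannot be told apart.

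Cells that expressed TRF2 gave a like picture. Of the 39 members, 35 were lower in senescent than in young cells and 1 was higher, against 30.1% and 28.2% of all genes tested. Their median log2 fold change was −1.13, beside −0.02 for all genes, and 23 members were at least 2-fold lower, where 12.1% of all genes were. All 10 proliferation markers were lower, with a median of −3.51. This comparison has its own young and senescent libraries and shares none with the comparison above.

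**Figure D1:**
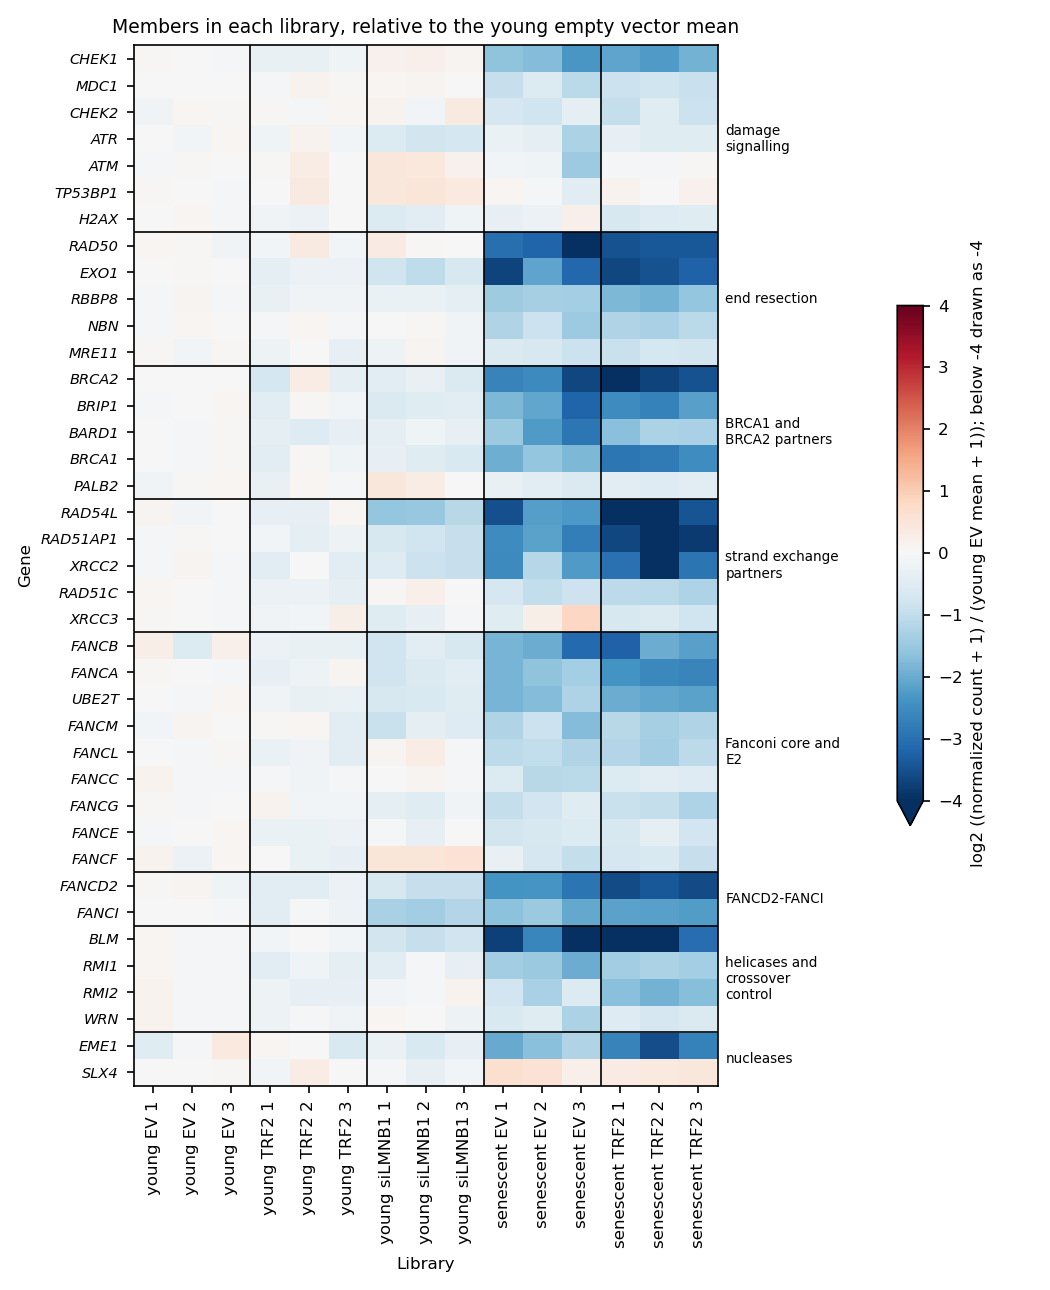
Level of the 39 tested members (rows, grouped by role) in each of the 15 libraries (columns), as log2 of the normalized count plus 1 divided by the mean of young empty-vector libraries plus 1, with values below −4 drawn as −4. Blue fills most rows of the 6 senescent libraries, the siLMNB1 libraries are pale blue in part of the rows, and SLX4 is red in all senescent libraries.

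Among the signalling genes, the kinase CHEK1, which halts the cycle when replication stalls, fell most. Its log2 fold changes were −1.86 ± 0.14 (SE, empty vector, adjusted p = 1.39e-08, edgeR) and −1.83 ± 0.14 with TRF2 (adjusted p = 1.67e-08). MDC1, a scaffold on damaged chromatin, and CHEK2, the effector kinase of ATM, were lower by less than 2-fold in both settings without the offsets. With the offsets MDC1 was 2.19-fold lower with the empty vector and 2.21-fold lower with TRF2. ATM, the kinase that answers broken ends, was not called, with normalized counts of 1851, 1966 and 1938 in young cells and 1778, 1697 and 704 in senescent cells with the empty vector. The groups did not overlap, but only the third senescent library was far below the young ones, and the log2 fold change was −0.46 ± 0.22 (adjusted p = 0.0794). TP53BP1, which shields ends from resection, had a log2 fold change of −0.11 with the empty vector and −0.03 with TRF2, and neither was called.

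All 5 genes of end resection were lower in both settings. RAD50 (ENSG00000113522, chr5:132556019-132646349 in GRCh38), the structural subunit of the MRN complex, had normalized counts of 1337, 1326 and 1170 in young and 157, 138 and 44.9 in senescent cells with the empty vector. All senescent libraries lay far below the young ones, and the log2 fold change of −3.51 ± 0.27 (adjusted p = 1.64e-08) was the largest fall of any member here. With TRF2 the counts were 1193, 1629 and 1176 in young and 113, 121 and 120 in senescent cells, again far apart (log2 −3.50 ± 0.27, adjusted p = 1.41e-08). Another annotated gene on the same strand, which was not analysed here, shares 76.9% of the exonic bases of RAD50. Among the 149 tested protein-coding genes that share over 50% of their exonic bases with a gene on the same strand, 36.9% were over 8-fold lower in senescent cells with the empty vector, compared with 1.43% of the 10875 genes that share none. A difference in the annotation used for counting the 2 deposits was not tested, and the fall of RAD50 is uncertain in size and as a change of expression. Its partners in the complex, whose exons share at most 4.26% of bases with other genes, fell less: NBN by 1.14 ± 0.12 and MRE11 by 0.68 ± 0.12 on the log2 scale with the empty vector.

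EXO1 (chr1:241847967-241895148), the exonuclease of long-range resection, had normalized counts of 412, 430 and 415 in young and 31.1, 95.4 and 47.0 in senescent cells with the empty vector. In the TRF2 cells the values were 319, 354 and 359 in young and 32.8, 36.9 and 44.1 in senescent libraries. The groups did not overlap in either setting, with log2 fold changes of −2.86 ± 0.25 (adjusted p = 5.59e-08) and −3.17 ± 0.26 (adjusted p = 2.60e-08). RBBP8, which encodes the resection factor CtIP, was 2.58-fold lower with the empty vector and 2.93-fold lower with TRF2.

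BRCA1, BRCA2, BARD1, PALB2 and BRIP1 were all lower in senescent cells of both settings. BRCA2 (chr13:32315086-32400268), which loads the recombinase on single strands, had 293, 297 and 295 normalized counts in young and 45.5, 50.1 and 23.0 in senescent cells with the empty vector. With TRF2 the counts were 179, 364 and 232 in young and 16.4, 21.5 and 25.7 in senescent cells. Young TRF2 libraries were more spread than those of the empty vector, yet every senescent library was below every young one, and BRCA2 fell 7.52-fold (log2 −2.91 ± 0.27, adjusted p = 1.35e-07) and 12.0-fold (log2 −3.59 ± 0.29, adjusted p = 2.60e-08). BRCA2 was also the tested member with the lowest level per length in young cells, at 0.77 RPKM, whereas H2AX, the histone variant that is marked around breaks, had 40.5, UBE2T 17.7 and NBN 16.4.

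BRCA1, the ubiquitin ligase that promotes resection, fell by 1.76 ± 0.15 on the log2 scale with the empty vector and by 2.55 ± 0.16 with TRF2. BARD1, its obligate partner, fell by 2.12 ± 0.23 and by 1.00 ± 0.22. PALB2, which joins BRCA1 to BRCA2, changed least of this group, with log2 fold changes of −0.44 and −0.38 and a call that was lost in both settings with the offsets.

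BRIP1 (ENSG00000136492, chr17:61679139-61863559, minus strand), a helicase bound to BRCA1, had normalized counts of 478, 506 and 526 in young and 145, 118 and 53.2 in senescent cells with the empty vector. Senescent values were all lower, the third library most, with a log2 fold change of −2.27 ± 0.24 (adjusted p = 5.11e-07), and −2.32 ± 0.24 with TRF2 (adjusted p = 4.32e-07). The 250 bases before annotated starts were searched on both strands for E2F sites (TTTCGCGC, TTTGGCGC, TTTCCCGC or TTTGCCGC) and for the cell cycle homology region (CHR, TTTGAA), elements known from promoters of cycling genes, because the members moved together. Of the 8 members with the largest falls with the empty vector, BRIP1 alone had a match, a CHR that begins 240 bases before the start and is read on the opposite strand. Its promoter is given below with that of FANCA, which was chosen after its values were seen, as a core gene that was lower in senescent, siLMNB1 and TRF2-expressing senescent cells and holds an E2F match that begins 172 bases before the start. The windows come from RefSeq on GRCh38.p14, run 5′ to 3′ on the strand of the gene, and show the matches in capitals.
BRIP1, chr17:61863529-61863778, minus strand: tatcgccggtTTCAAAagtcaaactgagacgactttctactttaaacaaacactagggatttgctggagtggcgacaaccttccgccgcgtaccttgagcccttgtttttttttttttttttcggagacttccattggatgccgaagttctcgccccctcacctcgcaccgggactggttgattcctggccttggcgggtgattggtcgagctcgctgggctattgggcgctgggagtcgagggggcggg
FANCA, chr16:89816648-89816897, minus strand: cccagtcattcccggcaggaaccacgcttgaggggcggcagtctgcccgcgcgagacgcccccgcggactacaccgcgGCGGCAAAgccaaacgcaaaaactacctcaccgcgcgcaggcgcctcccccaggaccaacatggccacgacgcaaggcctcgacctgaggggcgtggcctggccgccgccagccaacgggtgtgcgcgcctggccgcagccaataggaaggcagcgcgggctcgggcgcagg

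The promoter table held 47 promoter windows for 36 of the 40 genes, and FANCI, NBN, RMI2 and WRN had none. An E2F match lay in 3 of these windows (6.38%), compared with 2.79% of all 35116 windows and 3.94% of those of tested genes, and a CHR match in 6 (12.8%), compared with 13.3% and 9.31%. A CCAAT box (CCAAT on either strand) lay in 23 (48.9%) of the members' windows, in 32.0% of all windows and in 32.5% of those of tested genes. Some genes have several windows. By gene, 19 of the 36 members had a CCAAT box, compared with 4705 of the 11478 tested genes that have a window. Neither of the promoters printed holds both an E2F and a CHR match. A match is a string of letters here, and binding was not measured.

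**Figure D2:**
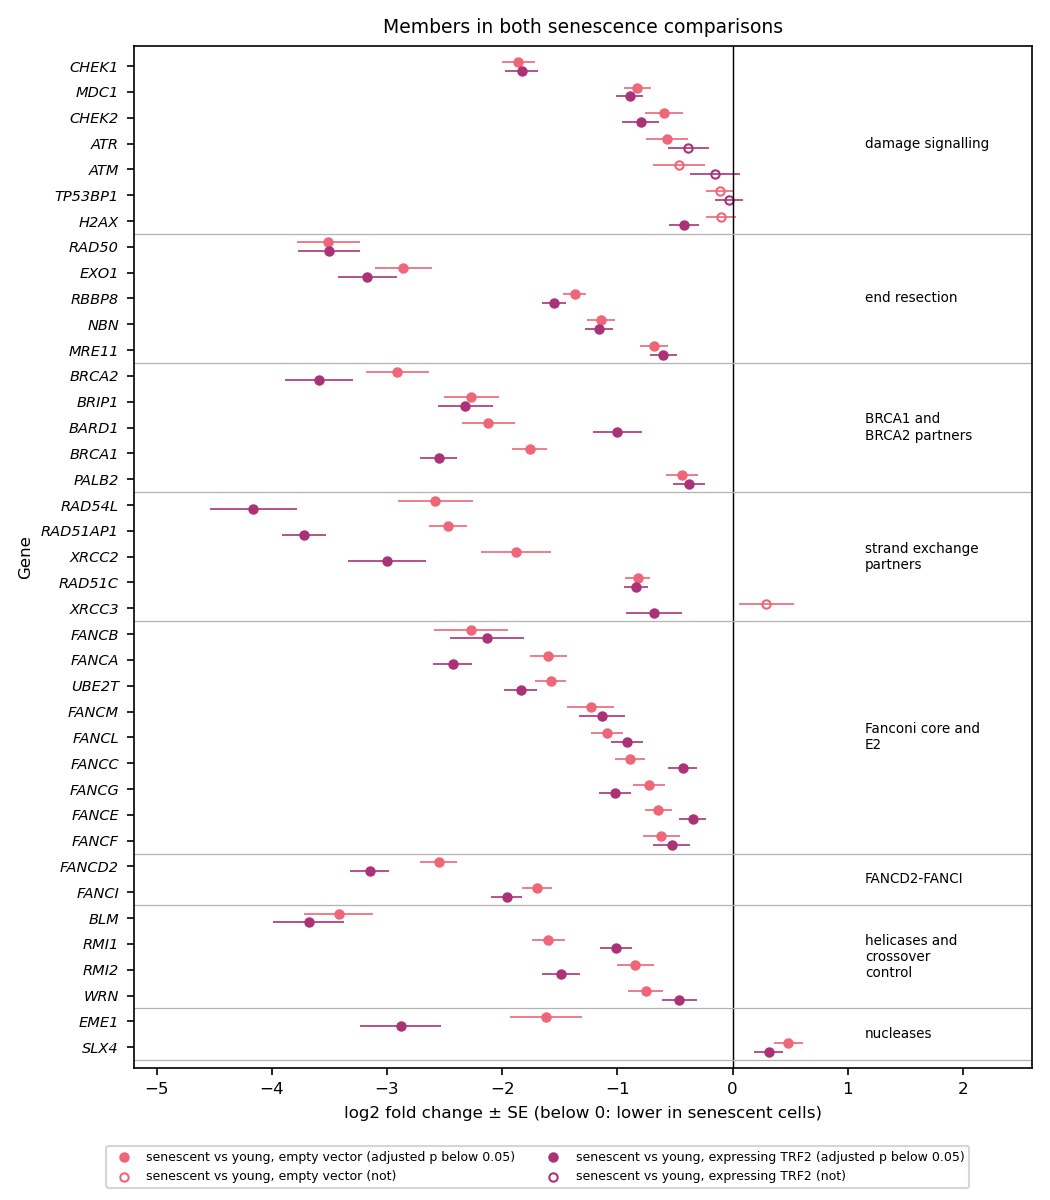
Log2 fold change ± SE (x axis) of each tested member in senescent relative to young cells, by role, in light red for the empty vector and purple for TRF2, where filled points have an adjusted p below 0.05 and open points do not. Most points lie left of 0, from −4.16 for RAD54L with TRF2, and SLX4 lies right of 0 in both settings.

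Of all members, RAD54L and RAD51AP1, both partners of strand exchange, fell most in cells that expressed TRF2. RAD54L (chr1:46246461-46278480), a motor protein that moves the recombinase along DNA, had normalized counts of 176, 149 and 159 in young and 13.2, 34.6 and 32.4 in senescent cells with the empty vector, and of 130, 129 and 170 in young and 7.18, 2.05 and 13.8 in senescent cells with TRF2. Every senescent library was below every young one, and those with TRF2 rest on 7, 2 and 15 reads. RAD54L changed by −2.58 ± 0.32 on the log2 scale with the empty vector (adjusted p = 3.50e-06) and −4.16 ± 0.38 with TRF2 (adjusted p = 1.09e-07). RAD54L shares 19.9% of its exonic bases with genes on the other strand, FANCA 19.6%, EME1 16.4% and CHEK1 13.4%, and the strand setting of the counting is not given in the sources used here.

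RAD51AP1 (ENSG00000111247, chr12:4538798-4560047), which helps the recombinase pair strands, shares no exonic bases with another gene. Its normalized counts were 411, 449 and 436 in young and 74.2, 97.8 and 62.6 in senescent cells with the empty vector, and 399, 332 and 375 in young and 33.9, 20.5 and 29.4 in senescent cells with TRF2. The senescent libraries of the TRF2 cells were all below those of the empty vector, which in turn were all below the young ones. RAD51AP1 fell 5.54-fold with the empty vector (log2 −2.47 ± 0.17, adjusted p = 3.12e-09) and 13.1-fold with TRF2 (log2 −3.72 ± 0.19, adjusted p = 7.97e-11).

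Of the paralogues of the recombinase, XRCC2 had normalized counts of 108, 145 and 104 in young and 17.4, 8.20 and 18.4 in senescent cells with TRF2, groups that did not overlap (log2 −3.0 ± 0.34, adjusted p = 1.21e-06). It fell by 1.88 ± 0.30 on the log2 scale with the empty vector. RAD51C, which forms complexes with XRCC2 and with XRCC3, fell by 0.82 ± 0.11 and by 0.84 ± 0.11. XRCC3 was not called with the empty vector, with 153, 148 and 144 in young and 105, 173 and 264 in senescent cells. Its senescent libraries lay on both sides of the young ones, and 76.7% of its exonic bases are shared with genes on the other strand.

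The Fanconi core complex and UBE2T were lower throughout, with all 9 genes called in both settings. Their log2 fold changes ranged from −0.62 for FANCF to −2.27 for FANCB with the empty vector, and from −0.35 for FANCE to −2.43 for FANCA with TRF2. UBE2T, the E2 enzyme, fell 2.99-fold and 3.59-fold. FANCL, the E3 ligase of the complex, fell 2.13-fold and 1.89-fold, and FANCM, a translocase that anchors the complex to DNA, fell 2.35-fold and 2.19-fold. FANCC, FANCE, FANCF and FANCG, structural subunits of the complex, were lower by at most 2.03-fold in either setting without the offsets. With the offsets FANCG was 2.05-fold lower with the empty vector and 2.38-fold lower with TRF2.

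FANCD2 and FANCI, the ubiquitinated pair, were both lower. FANCD2 (chr3:10026370-10101932) had normalized counts of 499, 517 and 421 in young and 91.0, 93.0 and 62.6 in senescent cells with the empty vector, and of 349, 348 and 403 in young and 39.0, 45.1 and 39.5 in senescent cells with TRF2. The groups were far apart in both settings. It fell 5.85-fold with the empty vector (log2 −2.55 ± 0.16, adjusted p = 1.09e-09) and 8.89-fold with TRF2 (log2 −3.15 ± 0.17, adjusted p = 1.67e-10), while FANCI fell 3.25-fold and 3.88-fold.

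Of the helicases, BLM (chr15:90717346-90816166), which dissolves joint molecules together with RMI1 and RMI2, had normalized counts of 250, 230 and 227 in young and 16.8, 38.2 and 11.5 in senescent cells with the empty vector, and of 218, 231 and 220 in young and 10.3, 13.3 and 27.5 in senescent cells with TRF2. Every senescent library was far below every young one in both settings. BLM fell by 3.42 ± 0.30 (adjusted p = 7.03e-08) and by 3.68 ± 0.31 (adjusted p = 3.55e-08) on the log2 scale. RMI1 fell 3.03-fold and 2.01-fold, RMI2 1.79-fold and 2.81-fold, and WRN, the helicase lost in Werner syndrome, 1.69-fold and 1.38-fold.

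The nucleases differed from each other. EME1, the partner of MUS81, was 3.07-fold lower with the empty vector and 7.36-fold lower with TRF2. Its senescent libraries rest on few reads, 14, 18 and 29 with the empty vector and 10, 5 and 11 with TRF2. SLX4 (chr16:3581181-3611606), the scaffold on which several nucleases assemble, had normalized counts of 375, 371 and 387 in young and 592, 565 and 431 in senescent cells with the empty vector, and of 352, 462 and 384 in young and 479, 492 and 516 in senescent cells with TRF2. Every senescent library was above every young one of its setting. SLX4 was the only member that was higher in either setting, by 0.49 ± 0.13 (adjusted p = 0.0037) and by 0.31 ± 0.13 (adjusted p = 0.0458) on the log2 scale. With the GC and length offsets neither rise was called (log2 0.13, adjusted p = 0.372, and −0.0057, adjusted p = 0.972), and with TRF2 leaving out 1 library at a time kept the call in 1 of 6 fits.

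**Figure D3:**
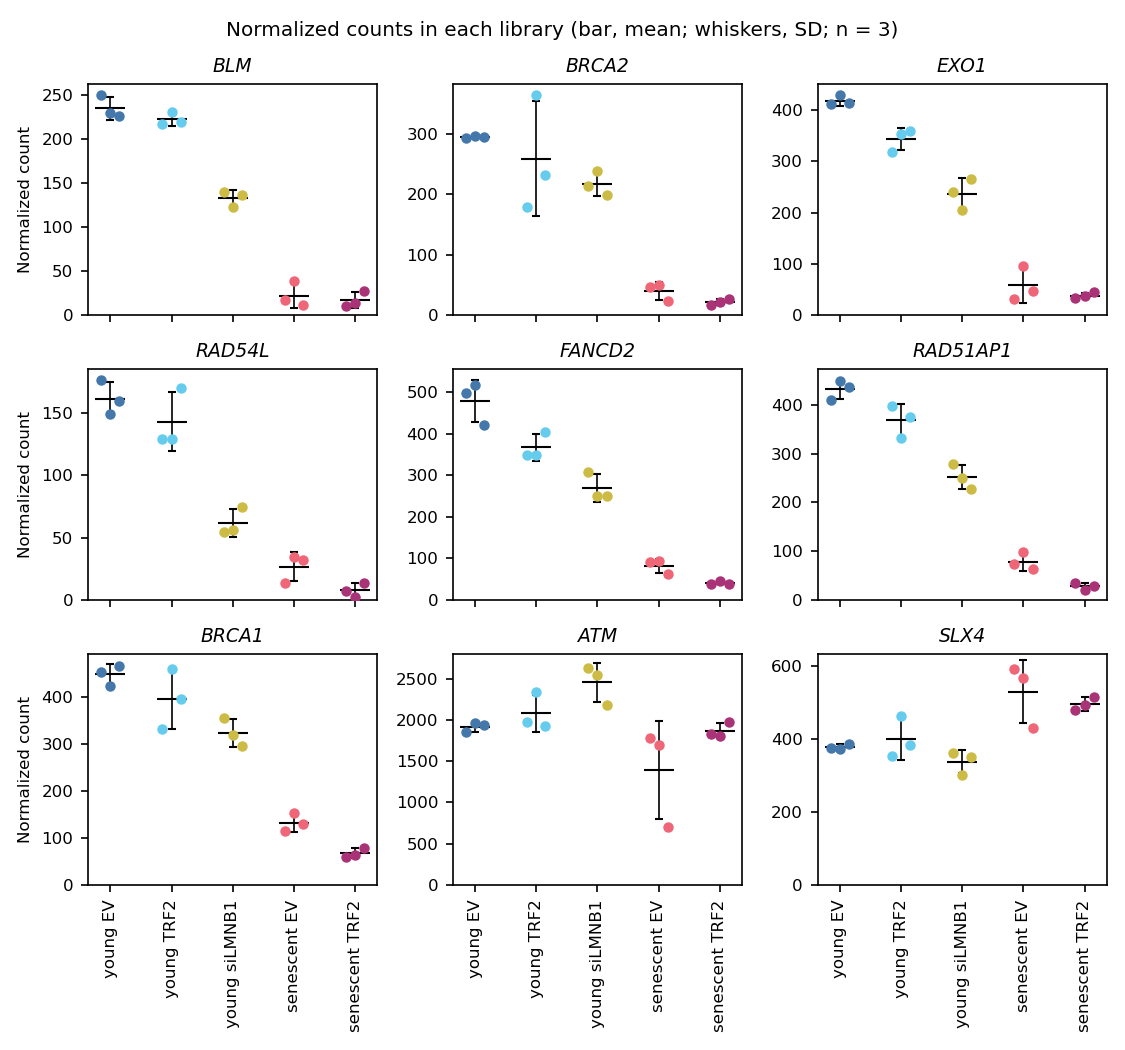
Normalized counts of 9 members (y axis, from 0) in each library, by group, with the mean (bar) and SD (whiskers) of 3 libraries. BLM, BRCA2, EXO1, RAD54L, FANCD2, RAD51AP1 and BRCA1 are lowest in the senescent groups, the third senescent library with the empty vector is far below the others in ATM, and the mean of SLX4 is highest in the senescent groups.

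With the GC and length offsets most calls were kept, while many falls became smaller and others larger. With the empty vector, 32 members were lower and 0 higher, where 4823 of all 15799 genes were lower and 4277 higher. Of the 35 calls, 30 were kept. MRE11, FANCF, ATR, PALB2 and SLX4 lost theirs. With TRF2, 32 members were lower, where 4787 of all 15799 genes were. Of the 36 calls 32 were kept, and FANCF, WRN, PALB2 and SLX4 lost theirs. Among the kept calls with the empty vector, the log2 fold change went from −1.14 to −0.53 for NBN, from −1.09 to −0.45 for FANCL, from −0.82 to −0.37 for RAD51C, from −0.75 to −0.24 for WRN and from −1.23 to −0.64 for FANCM. RAD51AP1 went from 5.54-fold to 3.51-fold lower. Falls that grew on the log2 scale with the empty vector included FANCA (−1.60 to −2.06), RAD54L (−2.58 to −2.87), MDC1 (−0.825 to −1.13), FANCE (−0.64 to −0.97), FANCG (−0.72 to −1.03) and RMI2 (−0.84 to −1.01). The median of the members moved from −1.23 to −1.03 with the empty vector and from −1.13 to −1.25 with TRF2. The 5 log2 fold changes lost with the empty vector became −0.15 for MRE11, −0.33 for FANCF, 0.01 for ATR, −0.15 for PALB2 and 0.13 for SLX4.

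The members whose calls were lost had small changes. MRE11, the nuclease of the MRN complex, had normalized counts of 541, 486 and 541 in young and 352, 336 and 289 in senescent cells with the empty vector. FANCF had 340, 266 and 330 in young and 256, 194 and 160 in senescent cells. PALB2 had 272, 315 and 321 in young and 246, 220 and 205 in senescent cells. In each of these genes every senescent library was below every young one. With TRF2, FANCF had 306, 258 and 246 in young and 197, 203 and 163 in senescent cells. PALB2 had 249, 320 and 296 in young and 227, 211 and 228 in senescent cells with TRF2. These groups did not overlap either, and PALB2 came closest to doing so. ATR, the kinase of stalled forks, had 1008, 920 and 1050 in young and 825, 773 and 411 in senescent cells, of which the third is the lowest by far. WRN with TRF2 had 583, 657 and 613 in young and 473, 420 and 452 in senescent cells, again with no overlap.

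The GC-rich members H2AX and XRCC3 also moved down under the offsets, and were singled out after their values were seen. H2AX, with 66.8% GC in its exons, had normalized counts of 2086, 2187 and 1957 in young and 1644, 1765 and 2410 in senescent cells with the empty vector. The third senescent library was above all others, and the log2 fold change was −0.10 ± 0.13 (adjusted p = 0.524) without the offsets and −1.33 ± 0.09 (adjusted p = 9.81e-10) with them. XRCC3, with 61.2% GC, went from 0.29 ± 0.24 (adjusted p = 0.286) to −0.57 ± 0.19 (adjusted p = 0.0172). For both genes the direction or the call depends on this correction.

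**Figure D4:**
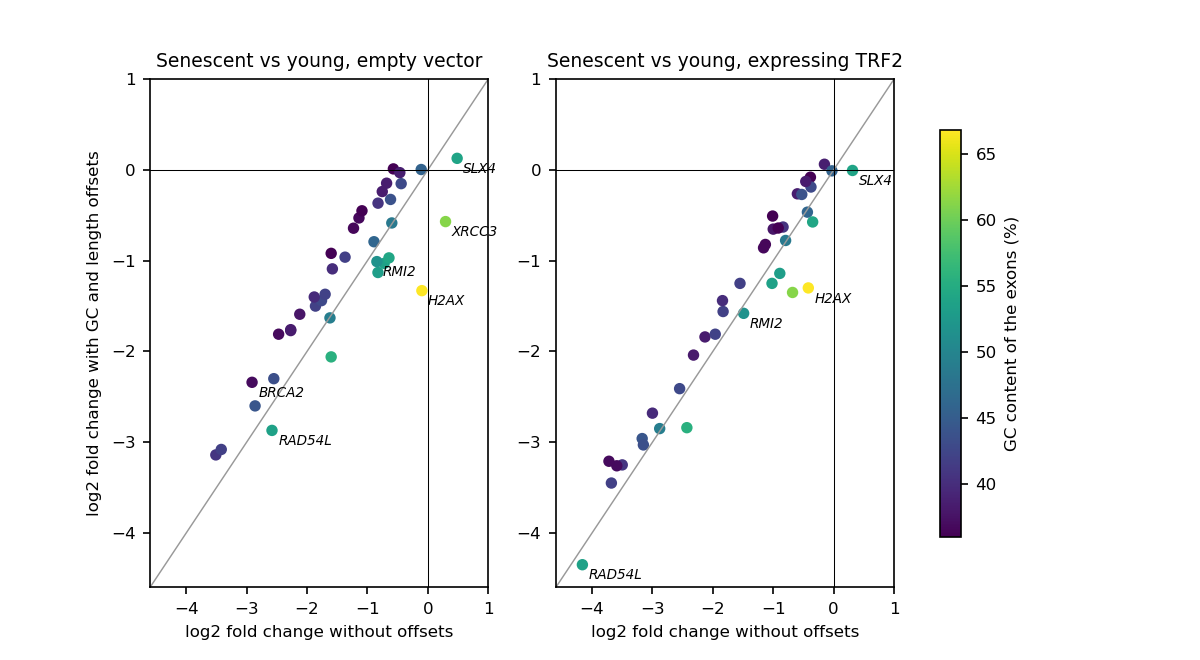
Log2 fold change of the 39 tested members in senescent relative to young cells (left, empty vector, right, TRF2) without (x axis) and with (y axis) the offsets for GC content and length, coloured by exon GC content in percent, with the diagonal in grey. Members with low GC content lie above the diagonal and those with high GC content, such as H2AX and XRCC3, below it.

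Knockdown of lamin B1 in young cells lowered part of the members. At an adjusted p below 0.05, 14 of 39 were lower, against 16.1% of all genes tested, and 2 were higher, against 16.4%. The median log2 fold change of the members was −0.29, beside 0.04 over all genes, and 9 members also passed the fold change limit of 0.58 on the log2 scale, all lower, where 8.06% of all genes did. FANCD2 and FANCI, 3 of 5 partners of strand exchange, 3 of 9 core genes, 2 of 5 resection genes, 2 of 7 signalling genes, BRCA1 and BLM were lower. The comparison uses the same young libraries with the empty vector as the first senescence comparison. Proliferation markers were lower here too, 8 of 10 with a median of −0.92, and their part in these changes was not tested.

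FANCI (chr15:89243945-89317261) had the smallest adjusted p, with normalized counts of 1220, 1202 and 1170 with the control siRNA and 492, 451 and 528 with siLMNB1. Both groups were tight and far apart, and FANCI fell 2.44-fold (log2 −1.29 ± 0.13, adjusted p = 1.76e-06). RAD54L fell most, from 176, 149 and 159 to 54.9, 55.8 and 74.3, groups that did not overlap (log2 −1.38 ± 0.29, adjusted p = 0.00162). FANCD2 fell from 499, 517 and 421 to 307, 250 and 250 (log2 −0.84 ± 0.14, adjusted p = 3.00e-04). RAD51AP1 fell from 411, 449 and 436 to 279, 251 and 228 (log2 −0.78 ± 0.15, adjusted p = 8.74e-04). In these genes too, no siLMNB1 library reached a control library.

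Smaller falls of UBE2T and FANCA were called as well. UBE2T had 497, 483 and 525 normalized counts with the control siRNA and 323, 331 and 356 with siLMNB1 (log2 −0.58 ± 0.13, adjusted p = 0.00296). FANCA had 339, 333 and 306 and then 188, 219 and 245 (log2 −0.58 ± 0.15, adjusted p = 0.00692). Their groups did not overlap. The 2 members that were higher were FANCF, with 340, 266 and 330 against 433, 433 and 467 (log2 0.51 ± 0.16, adjusted p = 0.0181), and TP53BP1, with 2618, 2557 and 2442 against 3501, 3541 and 3316 (log2 0.44 ± 0.12, adjusted p = 0.0113). TP53BP1 shares 28.8% of its exonic bases with genes on the other strand.

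Several members were near their control level with siLMNB1. CHEK1 had a log2 fold change of 0.16 (95% interval −0.12 to 0.45), NBN of −0.03 (−0.28 to 0.22) and RAD51C of 0.09 (−0.13 to 0.31). For 30 of the 39 members the interval did not reach below −1, and members called lower, such as BRCA1 and FANCA, are among these 30. Leaving out 1 library at a time gave 11 to 13 calls, and 9 of the 16 were kept in all 6 fits.

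No member was called between young cells with and without TRF2 at an adjusted p below 0.05. Of all genes tested, edgeR called 0.177%, and 3 members had an unadjusted p below 0.05. The log2 fold changes of the members ranged from −0.39 for BARD1 to 0.13 for TP53BP1, with a median of −0.17, and no interval reached below −0.86 or above 0.59. DESeq2's Wald test also called 0 members. With only the 6 libraries compared in the fit, BARD1 was lower (log2 −0.39, adjusted p = 0.0463).

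TRF2 in senescent cells went with lower levels of 13 of 39 members, while 0 were higher. Of all genes tested, 6.41% were lower and 4.87% higher. The median of the members was −0.19, beside −0.02 for all genes, and 4 were at least 2-fold lower, where 2.16% of all genes were. Proliferation markers were lower too (9 of 10, median −0.98), and their part was not tested. DESeq2's Wald test called the same number lower and 2 higher, BARD1 and FANCC, and edgeR with no filter on low counts called 13 lower and 2 higher, ATM and BARD1. The count rests on the spread shared with the other groups: with only the 6 senescent libraries in the fit 0 members and 2 genes in all were called, and 8 or 11 without the second or the third senescent library of the empty vector. Leaving out the first gave 18 calls, 15 lower and 3 higher (ATM, BARD1 and FANCC), and leaving out 1 library with TRF2 gave 5, 5 and 8. The fit without the first also called more of all genes, 2185 of 16265 lower and 2226 higher.

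Among the 13 were 4 of the 5 partners of strand exchange, with RAD54L called although its groups overlap, and both FANCD2 and FANCI. RAD51AP1 had 74.2, 97.8 and 62.6 normalized counts with the empty vector and 33.9, 20.5 and 29.4 with TRF2 (log2 −1.48 ± 0.21, adjusted p = 4.68e-04). BRCA1 had 115, 153 and 129 and then 59.5, 62.6 and 78.9 (log2 −0.98 ± 0.17, adjusted p = 0.00191). Libraries with TRF2 were all below those without in both genes. RMI2 went from 166, 117 and 194 to 88.3, 75.9 and 88.1 (log2 −0.92 ± 0.17, adjusted p = 0.00322). FANCA went from 88.6, 106 and 126 to 61.6, 53.3 and 51.4 (log2 −0.95 ± 0.18, adjusted p = 0.00338). FANCD2, from 91.0, 93.0 and 62.6 to 39.0, 45.1 and 39.5, changed by −0.99 ± 0.19 on the log2 scale (adjusted p = 0.00354). These 5 calls were kept in all 6 fits without a library, and the groups of each gene did not overlap.

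XRCC3 was called with 105, 173 and 264 against 95.4, 98.4 and 85.3 (log2 −0.97 ± 0.24, adjusted p = 0.0192). The groups did not overlap, the senescent libraries with the empty vector were widely spread, and the call was kept in 2 of the 6 fits. BARD1 had the opposite sign without a call here, at 0.72 ± 0.23 on the log2 scale (adjusted p = 0.0579).

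**Figure D5:**
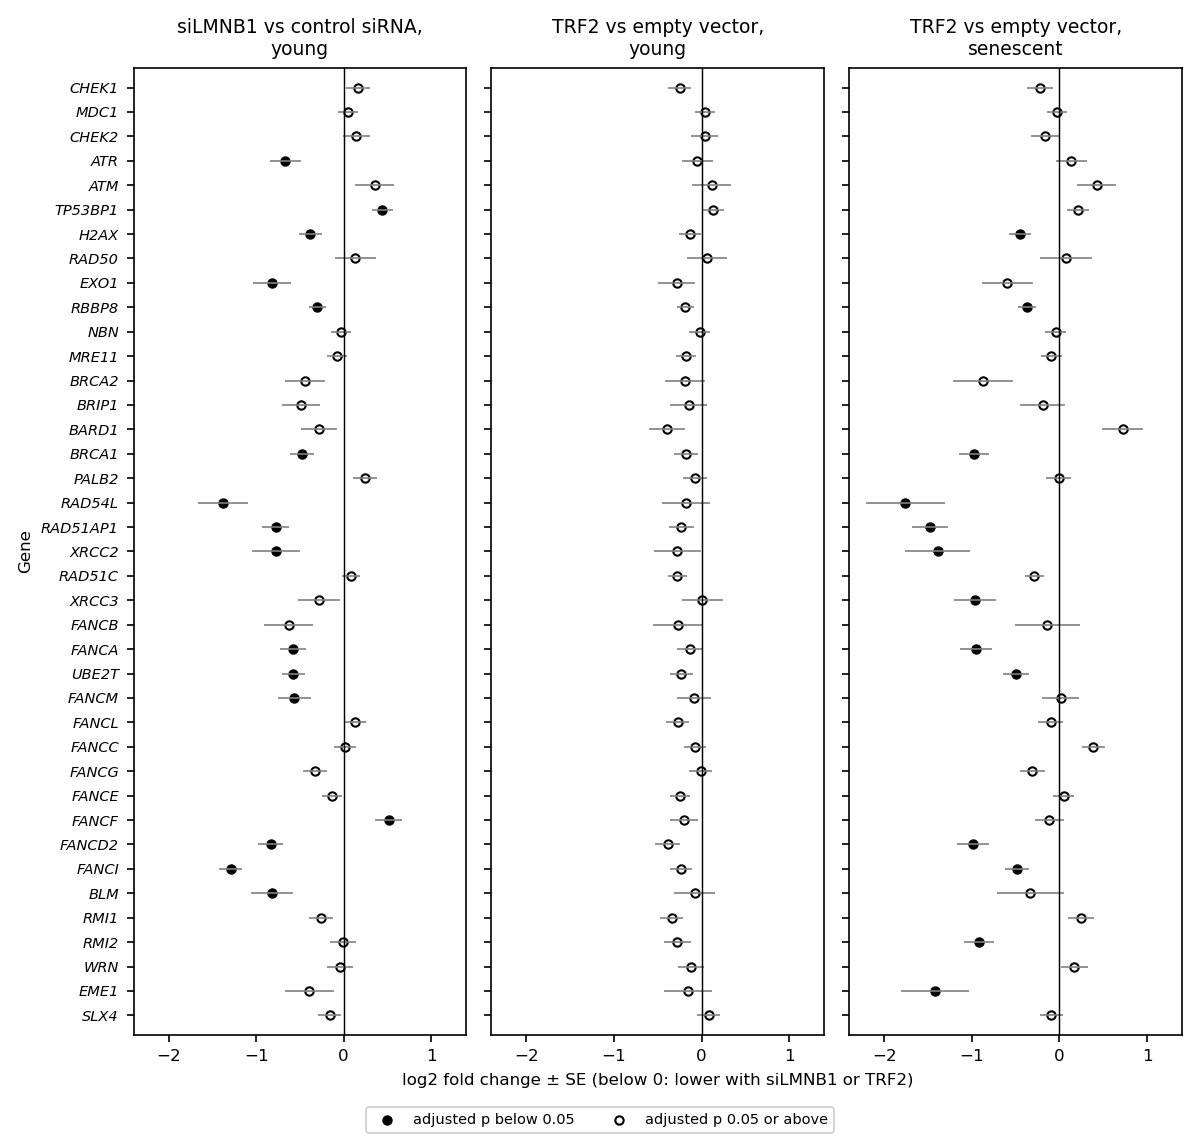
Log2 fold change ± SE of the 39 tested members with siLMNB1 in young cells (left), with TRF2 in young cells (middle) and with TRF2 in senescent cells (right), where filled points have an adjusted p below 0.05. FANCI and RAD54L lie farthest left with siLMNB1, no point is filled in the middle, and RAD54L and RAD51AP1 lie farthest left on the right.

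The senescence change differed with TRF2 for 1 of the 39 members, RAD51AP1, against 1.13% of all genes tested. TRF2 was expressed for longer in the senescent cells, so senescence and the length of expression cannot be told apart in this test. The fall of RAD51AP1 was larger by 1.25 ± 0.26 on the log2 scale in TRF2 cells (adjusted p = 0.0317, edgeR's test of the interaction). It remained called in 2 of the 12 fits that left out 1 library, with values from −1.40 to −1.05 and adjusted p from 0.00631 to 0.102. For the other 38 members, among them BRCA2 at −0.68 and RAD54L at −1.58, the difference between the settings was not called.

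Other genes of the same pathways, a list of 50 that holds further checkpoint, resection, shieldin, nuclease and Fanconi-associated factors, moved in both directions. With the empty vector 27 of 50 (54.0%) were lower in senescent cells, against 31.9% of all genes, and 8 (16%) higher, against 32.7%, with a median of −0.45. With TRF2 30 (60.0%) were lower, against 30.1%, and 9 (18.0%) higher, against 28.2%, with a median of −0.40. Values with the offsets were taken for the members only, and the part of GC content in the changes of this list was not tested. The smallest adjusted p with the empty vector belonged to USP1, the enzyme that takes ubiquitin off FANCD2, which fell by 1.87 ± 0.11 on the log2 scale (adjusted p = 3.26e-10), to ATRIP, the partner of ATR, and to FIGNL1, which fell by 1.56 ± 0.11 (adjusted p = 7.10e-09). ATRIP had 0 normalized counts in all young libraries with the empty vector and 274, 278 and 391 in the senescent ones, it had at most 1 read in any young library, and it shares 26.7% of its exonic bases with another gene on the same strand. Its rise is uncertain, since counting of the young and senescent libraries with the same annotation could not be checked. With TRF2 they belonged to CLSPN, a mediator of CHEK1 activation, which fell by 3.78 ± 0.21 (adjusted p = 3.38e-10), to USP1 (log2 −1.75) and to FIGNL1 (log2 −1.79).

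With siLMNB1 9 genes of this list (18.0%) were lower, a share near the 16.1% of all genes, and 3 (6.0%) were higher, against 16.4%. The smallest adjusted p belonged to SHLD2 (log2 −0.63), CLSPN (log2 −1.20) and BRCC3 (log2 −0.72), and those higher were SPIDR (log2 0.47), RAD51D (log2 0.43) and RAD52 (log2 0.54). Of these 50 genes, TRF2 in senescent cells went with lower CLSPN (log2 −1.85), MND1 (log2 −3.29), ERCC1 (log2 −0.67) and RAD51B (log2 −0.66) and higher RAD1 (log2 0.43). The shares over all genes tested were 6.41% lower and 4.87% higher. With only the senescent libraries in the fit, 2 of 14600 genes were called. In the edgeR test of the interaction CLSPN alone was called (log2 −1.68 ± 0.29, adjusted p = 0.0166), where 1.13% of all genes were.

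Of the 12 genes of end joining, the repair route that needs no sister chromatid, 11 were tested. In senescent cells with the empty vector 6 (54.5%) were lower, against 31.9% of all genes, and 4 (36.4%) higher, a share near the 32.7% of all genes, with a median of −0.38. XRCC5 and XRCC6, which encode the Ku subunits, fell by 0.98 ± 0.07 and by 0.69 ± 0.07 on the log2 scale (adjusted p = 5.87e-09 and 6.46e-07), whereas PAXX, POLM and POLL were among those higher, by 0.86 to 1.24. These values are without the offsets for GC content and length, and the part of GC content in them was not tested. With TRF2 XRCC4, XRCC5, XRCC6 and APLF were lower (36.4%, against 30.1% of all genes) and PAXX, POLM and POLL higher (27.3%, against 28.2%). With siLMNB1 only XRCC5 and XRCC6 of the 11 were called, both lower, where 16.1% of all genes were lower and 16.4% higher.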

How the data were processed

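Total RNA of MRC-5 cells was sequenced in 5 groups of 3 libraries, assigned from the sample descriptions. The authors deposited counts of reads per gene, without normalization; the submitters' processing notes name Trimmomatic, STAR, DESeq2 and GRCh38, and the annotation release and strand setting are not given in the sources used here. All columns were matched to a library. Genes were named with GENCODE 44, which lacks 279 of the 57272 genes (0.0563% of counts).

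After filterByExpr (15799 genes), TMM factors were computed and group means of all 15 libraries were modelled jointly in edgeR 4.0.16, with limma 3.58.1 under R 4.3.3. Quasi-likelihood tests were adjusted by Benjamini-Hochberg over all genes tested, with a threshold of 0.05. A second rule added the study's limits on the log2 scale, 1 between senescent and young cells and 0.58 with siLMNB1; the limit of 1 was also applied here to TRF2 against the empty vector. Normalized counts are TMM-scaled to the mean library, and RPKM use the canonical transcript. Offsets for GC content and length came from a loess curve (span 0.3, prior count 1) per library against the young mean. Total counts of 26725885 to 43116046 per library set the counting precision, and 3 libraries per group limit each test. Pairs of replicates differed beyond sampling noise (chi-square per degree of freedom 3.68 or more), so none was merged. Alternatives included DESeq2 1.42.0, no filter, fewer libraries, a replicate block and each library left out. Steps were tested on simulated data. Python 3.11.15 with pandas 2.3.3 and matplotlib 3.10.9 made the tables and figures.

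The members, gene lists and tests were chosen with earlier results of these data known. Genes with values per library were the 8 members with the largest falls and every rise in each senescence comparison, up to 6 called members by adjusted p elsewhere, and those whose senescence call was lost or turned with the offsets. Of the other lists, the 3 pathway genes with the smallest adjusted p and genes in counts of 5 or fewer were named. Promoters were printed for members with an E2F or CHR match among the 8 largest falls. Exceptions are stated. A gene of the end joining list is not reported here by name.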

Additional observations from a re-analysis of the deposited data

Results flagged for a closer look

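RAD51AP1, which helps the recombinase pair strands, changed by −2.47 on the log2 scale between young and senescent cells with the empty vector and by −3.72 with TRF2. The test of the interaction itself gave a difference of −1.25 ± 0.26 (adjusted p = 0.0317, edgeR's quasi-likelihood test over all genes), and all 3 senescent libraries with TRF2 were below the 3 with the empty vector. The offsets for GC content and length gave −1.40 (adjusted p = 0.00629). The difference was called in 2 of 12 fits without 1 library, those without the first or the third senescent library with the empty vector. The groups hold 3 libraries each, so no group was tested for a single library far from the rest. Senescence and the longer expression of TRF2 in senescent cells cannot be told apart in this difference.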

How the results depend on the processing

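Members called (higher and lower together) numbered 35 in senescent against young cells with the empty vector, 36 with TRF2, 16 with siLMNB1, 0 and 13 with TRF2 in young and senescent cells, and 1 for the interaction. DESeq2's size factors in edgeR gave the same numbers. Leaving out 1 library at a time gave 35 to 38, 31 to 35, 11 to 13, 0, 5 to 18 and 0 to 8. The 8 interaction calls without the first senescent library with the empty vector were BRCA1, BARD1, XRCC3, RAD51AP1, RAD54L, FANCA, FANCC and RMI1. That fit called many more of all genes, 989 of 16265 higher and 1100 lower, against 28 and 151 of 15799 in the main fit. With only the libraries compared, 24 members were called with siLMNB1, 1 with TRF2 in young cells, and 0 with TRF2 in senescent cells and for the interaction. That siLMNB1 fit called a large part of all genes, 4007 of 14463 higher and 4012 lower. Genes whose exons overlap no other gene include 12 members tested, of which 11, 12, 5, 0, 4 and 1 were called. Of all 7571 such genes, 2354 were lower and 2502 higher in senescent cells with the empty vector. The fold change limits left 22, 23, 9, 0 and 4. For the interaction, no filter on low counts gave 5 calls, DESeq2's Wald test 3 and the offsets for GC content and length 2. Over all genes, these fits called 326 higher and 629 lower of 31776, 140 and 347 of 31776, and 79 and 253 of 15799. Combining the offsets with removal of the third senescent library of the empty vector, which was chosen after seeing the data, left 32 calls with the empty vector, 13 with TRF2 in senescent cells and 2 for the interaction. Genes that changed sign with the offsets and were called in either fit were ATR with the empty vector (0.0116, and 0.0505 without that library), XRCC3 with the empty vector (−0.57, and −0.82 without it) and SLX4 with TRF2 (−0.0057). The cause of these shifts was not tested.

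Replicate numbers did not pair the libraries, since deviations of same-numbered libraries correlated at −0.0945 to 0.201 and in no pair of groups did all 3 exceed 0.1. A replicate block gave 36, 35, 16, 0, 13 and 1 calls. With the block and the offsets the numbers were 32, 32, 19, 0, 16 and 2, with ATR at 0.0124, XRCC3 at −0.60 and SLX4 at −0.0036.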
